A study of Mus musculus with 12 samples.

Results

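The Tf and Gf subfamilies of mouse LINE-1 were taken as the repeat names that start with L1MdTf_ or L1MdGf_. The rule found 5 names among the 18538 in the deposited tables, of which L1MdTf_I, L1MdTf_II and L1MdTf_III belong to Tf and L1MdGf_I and L1MdGf_II to Gf. All 5 were counted well above the filter on rarely counted names and were tested. They were 5 of the 25 names of the mouse L1Md group and 5 of 201 in the LINE class, the long interspersed elements.

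The study measured total RNA of C57BL/6 mouse embryos at the 2-cell stage, 1.5 days after fertilization, with 6 libraries per genotype. The WT group is labelled m+/p- and came from wild-type oocytes, and the group called KO here is labelled Kdm4a knockout m-/p- and came from Kdm4a knockout oocytes. Sperm of Kdm4a knockout males was used for both, so embryos of both groups lacked a working paternal allele, and the contrast is that of the maternal allele and the product stored in the oocyte. The embryos were put into individual tubes, without a statement of how many embryos or females each library stands for, so the p-values measure the spread between these libraries. Ribosomal RNA was depleted, and the libraries were sequenced from both ends.

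LINE-1 elements are retrotransposons that copy themselves through an RNA intermediate. A full-length copy is transcribed from a promoter in its own 5′ end, built in the mouse from tandem repeats called monomers, and encodes an RNA-binding protein, ORF1p, and ORF2p, which carries endonuclease and reverse transcriptase activity. The Tf, Gf and A subfamilies are the young groups of the mouse genome and differ in their monomers, and they hold copies that can still move. LINE-1 RNA is known to be present in mouse embryos before implantation. KDM4A is a demethylase of histone H3 whose substrates include the trimethylated lysine of the repressive mark H3K9me3, a mark found on many retrotransposons. The Roman numerals number sequence variants within a subfamily in the repeat annotation. No consensus sequence of these elements is printed, as none was among the files used here.

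The tables hold read counts per repeat name. Total counts ran from 7952526 to 18902360 per library. The defining repeats of the 2-cell stage, MERVL-int and its terminal repeat MT2_Mm, were abundant in all libraries, with a median of 5.98% of all counts for MERVL-int in WT and 3.73% in KO. The level of Kdm4a itself and markers of other cell types are genes and were not analysed here. Ribosomal RNA repeats, the part left after depletion, took 5.17% to 6.26% of the counts in WT and 4.79% to 6.94% in KO. WT replicate 2 and KO replicate 5, the shallowest library, lay farthest from the other libraries of their groups. The SD of their log2 deviations from the group mean over repeats was 0.43 and 0.35, beside 0.24 to 0.31 in the other libraries. Fits without both are named where they change a call. Levels below are normalised CPM, that is, counts scaled to a library of fixed size (CPM) after that size was corrected for composition by the TMM method. As relative counts, they cannot tell less RNA of an element per cell from fewer cells that contain it. The counts are not divided by the length or number of copies, so levels are compared between genotypes and not between names.

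1 of the 5 names changed between the genotypes. L1MdGf_II was lower in the embryos without maternal Kdm4a, while for L1MdGf_I and the 3 Tf names no difference was called. Over all 3312 repeats tested, 1.27% were called lower in KO and 0.151% higher (edgeR quasi-likelihood test, Benjamini-Hochberg adjusted p under 0.05). That balance depends on the scaling, with 33 lower and 357 higher calls under total counts and 32 and 15 with library sizes from LINE counts, beside 42 and 5; L1MdGf_II was among the lower calls in all 3. The median log2 fold change (KO over WT) of the 5 names was -0.08, beside 0.01 over all tested repeats. Of the 5, 4 were negative, beside 1616 of the 3312 tested repeats. With total counts only L1MdGf_II was negative.

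L1MdGf_II, the second variant of Gf, carried most of the counts of the 5 names. In WT its normalised CPM was 5052 in replicate 1, 4447 in replicate 2, 4582 in replicate 3, 4253 in replicate 4, 3392 in replicate 5 and 3825 in replicate 6. In KO it was 2214 in replicate 1, 2948 in replicate 2, 2614 in replicate 3, 3267 in replicate 4, 2992 in replicate 5 and 2554 in replicate 6. On this scale the groups did not overlap: all 6 KO libraries were lower than any WT library, with KO replicate 4 closest to the lowest WT library, replicate 5. Such a separation in this direction was seen in 1.39% of the tested repeats. As a share of all counts, which uses no TMM factor, the groups overlapped. There 5 KO libraries lay below every WT library. KO replicate 4, at 0.350%, was inside the WT range of 0.331% to 0.469%. From a mean of 4259 ± 585 normalised CPM in WT, L1MdGf_II fell to 2765 ± 376 in KO (SD over 6 libraries each). This is 0.649 times the WT level by the fitted fold change. The log2 fold change was -0.62 with a standard error of 0.11 and a 95% interval from -0.86 to -0.39 (edgeR adjusted p = 0.0157). L1MdGf_II had the tenth smallest p of all tested repeats. The fall stayed past the threshold in all 25 alternative fits, with adjusted p from 3.03e-05 to 0.0480, but its size depended on the scaling. With library sizes taken as total counts, which moved the median of all repeats by 0.31, to 0.32, the log2 fold change of L1MdGf_II was -0.32 (edgeR adjusted p = 0.0382). Against the median repeat, its difference was -0.63 with TMM and -0.64 with total counts. A change of scaling moves all names by nearly the same amount, so these values had to be close.

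**Figure D1:**
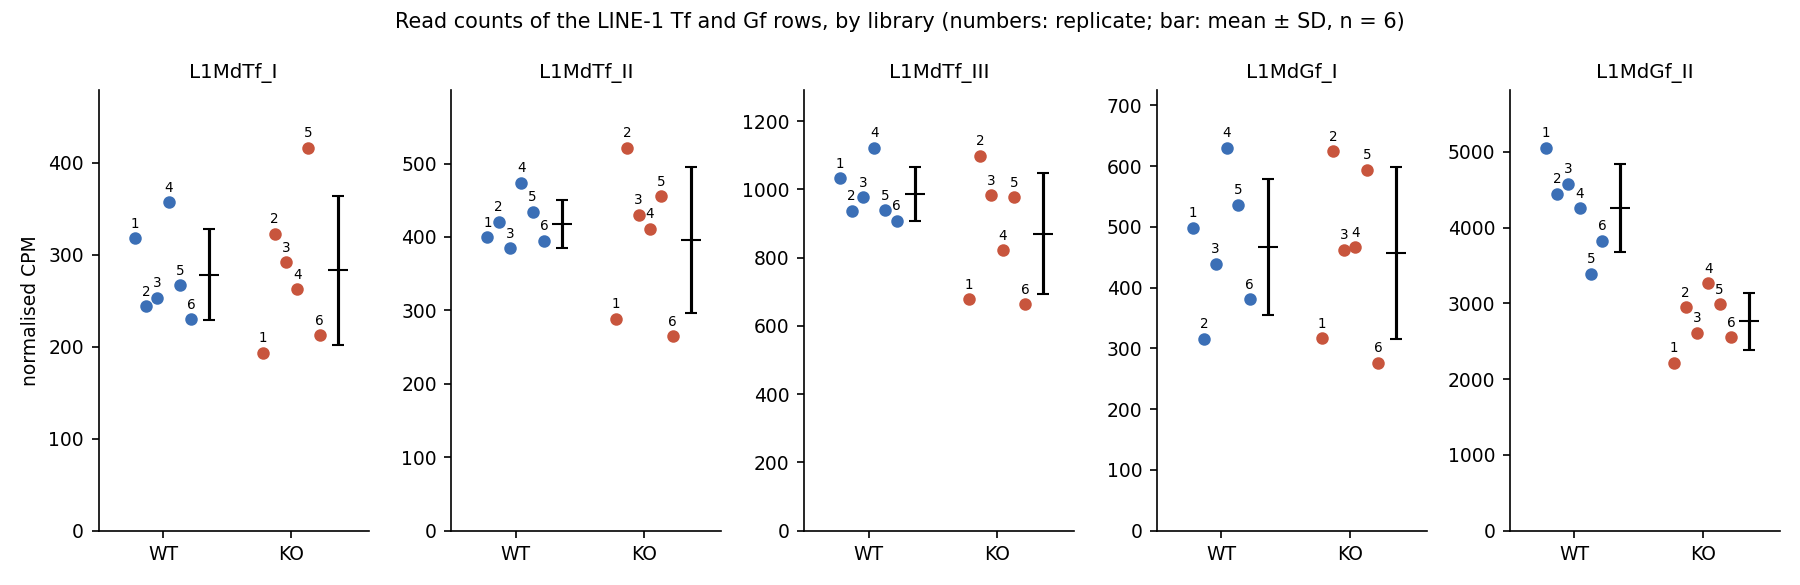
Normalised CPM (vertical axes, each from 0) of the 5 Tf and Gf names in the 6 WT and 6 KO libraries, with replicate numbers beside the points and the mean ± SD at the right of each group. For L1MdGf_II the KO libraries reach at most 3267 and the WT libraries at least 3392, while the groups overlap for the other 4 names.

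L1MdGf_I, the first variant of Gf, showed no such difference. Its normalised CPM in WT was 499 in replicate 1, 316 in replicate 2, 439 in replicate 3, 630 in replicate 4, 536 in replicate 5 and 381 in replicate 6. In KO it was 316 in replicate 1, 625 in replicate 2, 463 in replicate 3, 467 in replicate 4, 594 in replicate 5 and 277 in replicate 6. The groups overlapped over nearly their whole range, with medians of 469 and 465. The log2 fold change was -0.03 with a 95% interval from -0.47 to 0.41 (edgeR adjusted p = 0.977) and did not exclude a change in either direction.

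The 3 Tf names ended in the same place. Of them, L1MdTf_I had a log2 fold change of 0.02 (95% interval -0.34 to 0.39), L1MdTf_II of -0.08 (-0.39 to 0.23) and L1MdTf_III of -0.18 (-0.44 to 0.08), with edgeR adjusted p of 0.980, 0.892 and 0.563. None of the 3 was past an unadjusted p of 0.05 either, none was called by DESeq2 or by limma-voom, and their intervals still allow changes in both directions. The sign of these small values followed the scaling: with total counts all 3 were positive, and none was called.

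The values by library show where the Tf names varied. L1MdTf_III, the third variant and the Tf name with the most counts, stood at 1033, 938, 977, 1122, 939 and 909 normalised CPM in WT replicates 1 to 6 and at 679, 1099, 983, 821, 977 and 663 in KO replicates 1 to 6. KO replicates 1, 4 and 6 lay below all WT libraries and the other 3 within the WT range. L1MdTf_II stood at 399, 421, 385, 474, 435 and 395 in WT and at 289, 521, 430, 411, 456 and 265 in KO. KO replicates 1 and 6 were again below all WT libraries, and KO replicate 2 was above them. L1MdTf_I stood at 318, 244, 253, 357, 267 and 230 in WT and at 193, 323, 292, 262, 416 and 212 in KO. Here KO replicates 1 and 6 were the lowest of all 12 libraries and KO replicate 5 the highest.

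The low values of KO replicates 1 and 6 were common to the names. L1MdGf_I was lowest in KO replicate 6, and L1MdGf_II in KO replicate 1. These 2 libraries had the largest TMM factors, 1.26 and 1.24, and the lowest shares of MERVL-int, 2.48% and 2.87% of all counts. The factors of the other KO libraries ran from 0.978 to 1.09, and those of the WT libraries from 0.767 to 0.977. Every KO factor was thus above every WT factor, which lowers normalised CPM in KO relative to shares of all counts. As a share of all counts, which uses no TMM factor, L1MdTf_I in KO replicates 1 and 6 was 0.0243% and 0.0263%, inside the WT range of 0.0187% to 0.0342%. The part of the TMM factors in these low values was not tested. Between libraries of a group, the coefficient of variation of L1MdTf_II was 7.82% in WT and 25.1% in KO, and that of L1MdTf_III 8.02% and 20.4%. For L1MdTf_I it was 17.7% and 28.6%, for L1MdGf_I 24.1% and 30.8%, and for L1MdGf_II 13.7% and 13.6%. Whether the spread differed between the genotypes was not tested. Counting alone gave an error of at most 2.21%, reached by the lowest count, 2046 reads of L1MdTf_I in WT replicate 2.

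The next question was how the makeup of the Tf and Gf counts differed within a library. L1MdGf_II took 66.3% ± 3.86 of the counts of the 5 names for WT against 58.3% ± 4.55 for KO (SD, n = 6 each). L1MdTf_III took 15.5% ± 1.08 and 18.2% ± 1.85, L1MdTf_II 6.58% ± 0.842 and 8.20% ± 0.984, L1MdTf_I 4.34% ± 0.571 and 5.87% ± 0.962, and L1MdGf_I 7.32% ± 1.77 and 9.40% ± 1.61. The share of L1MdGf_II was below the WT median in all 6 KO libraries and below every WT library in 4. Those of L1MdTf_I and L1MdTf_II were above every WT library in 5 KO libraries each. Shares of one sum are not independent, so a fall of L1MdGf_II alone raises the other 4.

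Together the 5 names made up 0.577% ± 0.0752 of all counts for WT against 0.527% ± 0.0443 for KO (SD, n = 6). The Tf names gave 0.152% ± 0.0226 and 0.170% ± 0.0244 of all counts, and the Gf names 0.425% ± 0.0586 and 0.357% ± 0.0309. On this scale the mean of KO was the higher one for Tf and the lower one for Gf, and the groups overlapped for both. The direction for Tf depended on the scaling: in normalised CPM the summed Tf names averaged 1682 ± 150 over the WT libraries and 1549 ± 343 over the KO libraries, with overlap. The summed Gf names averaged 4725 ± 583 and 3222 ± 484, with no overlap (lowest WT library 3929, highest KO library 3734). The sum of all 5 names averaged 6408 ± 661 and 4771 ± 776, with the highest KO library at 5516 just under the lowest WT library at 5569. As a share of LINE counts, the 5 names stood at 5.26% ± 0.457 in WT and 4.34% ± 0.291 in KO, and here no KO library reached the WT range. As a share of L1Md counts they stood at 13.9% ± 1.14 and 12.9% ± 0.665, and the groups overlapped. L1MdGf_II made up most of the Gf and 5-name sums, with means of 4259 in WT and 2765 in KO, while L1MdGf_I averaged 467 and 457. The gaps between the groups in these sums are therefore not separate from the fall of L1MdGf_II. No p is given for these sums, since the names were chosen with earlier results known.

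Ratios of counts within a library need no scaling and test directly whether 2 names differed in their response. All 300 ratios between the 25 L1Md names were tested by exact permutation of the 12 libraries (924 regroupings, two-sided), and p-values were adjusted over the 300. Of these, 32.0% passed an adjusted p of 0.05, and in 16.0% the groups of libraries did not overlap. Of the 10 ratios between 2 Tf or Gf names, 3 passed, a share close to that background, and all 3 had L1MdGf_II as a partner.

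L1MdGf_II fell against each of the 3 Tf names. The log2 ratio of L1MdGf_II to L1MdTf_I was 3.94 ± 0.26 for WT against 3.32 ± 0.31 for KO (SD, n = 6), a difference of -0.62 (exact permutation p = 0.00649, adjusted p = 0.0260). In WT replicates 1 to 6 it was 3.99, 4.19, 4.18, 3.57, 3.67 and 4.06, and in KO replicates 1 to 6 it was 3.52, 3.19, 3.16, 3.64, 2.85 and 3.59. Only KO replicates 4 and 6 reached into the WT range, where WT replicates 4 and 5 were lowest. Against L1MdTf_II the difference was -0.50 and against L1MdTf_III -0.42 (n = 6, exact permutation p = 0.0152 and adjusted p = 0.0473 for each), and 4 of 6 KO libraries lay below every WT library in both.

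Against the other Gf name, the ratio of L1MdGf_II did not pass. The log2 ratio of L1MdGf_II to L1MdGf_I was 3.21 ± 0.43 for WT against 2.65 ± 0.36 for KO (SD, n = 6), a difference of -0.57 (exact permutation p = 0.0433, adjusted p = 0.112). The difference was of the size of those against the Tf names, with a larger spread among the libraries. In KO it ran from 2.24 in replicate 2 to 3.21 in replicate 6, and in WT from 2.66 in replicate 5 to 3.82 in replicate 2. None of the 6 ratios among L1MdGf_I and the 3 Tf names passed, with differences from -0.05 to 0.20 and adjusted p from 0.146 to 0.843 (n = 6, exact permutation); the one farthest from 0 was L1MdTf_I over L1MdTf_III.

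The call against L1MdTf_I held without 9 of the 12 single libraries. It was lost without KO replicate 2, 3 or 5 (differences of -0.59, -0.59 and -0.52, exact permutation adjusted p = 0.0535, 0.0606 and 0.0561) or without both WT replicate 2 and KO replicate 5 (-0.47, adjusted p = 0.0850). The calls against L1MdTf_II and L1MdTf_III were lost on leaving out any of 9 or 8 libraries, where adjusted p rose to 0.0828 and 0.0879, while the differences stayed between -0.59 and -0.37.

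**Figure D2:**
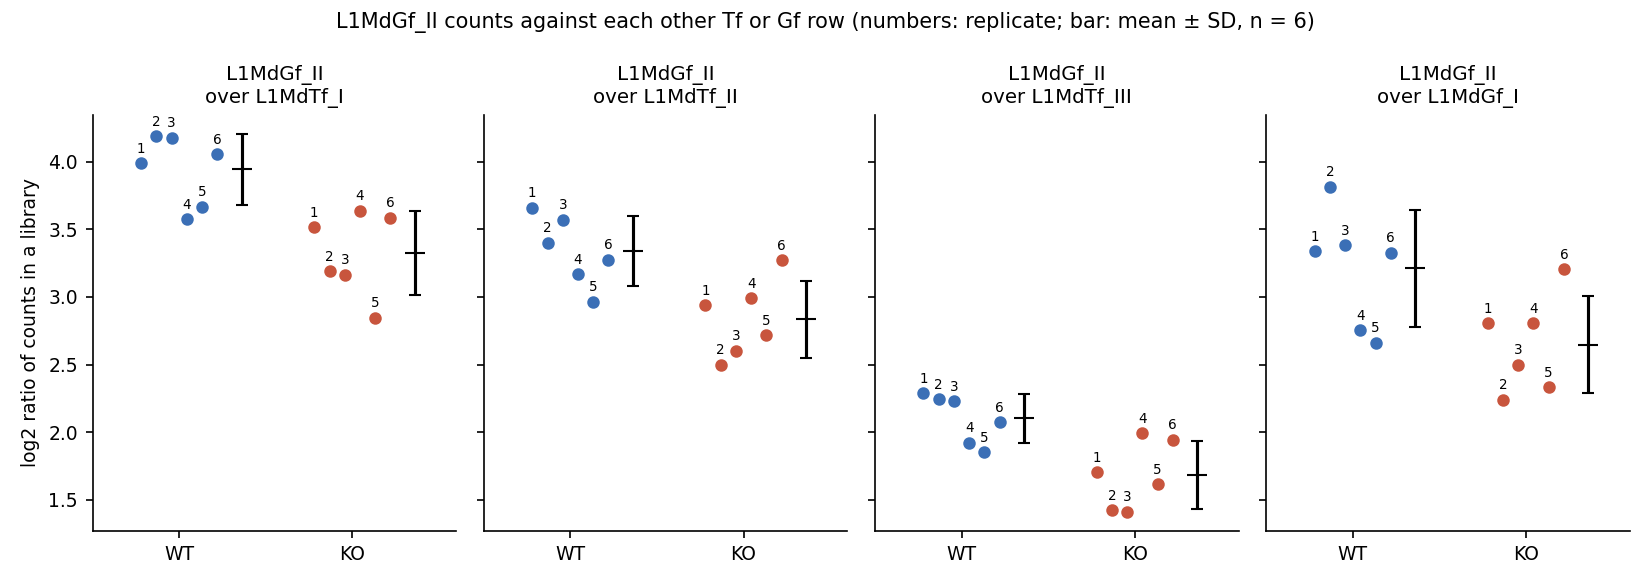
Log2 ratio of L1MdGf_II counts to those of each other Tf or Gf name (vertical axis) in each WT and KO library, with replicate numbers and the mean ± SD (n = 6). KO means lie below WT means in all 4 panels, by 0.62, 0.50, 0.42 and 0.57 from left to right, and in each panel at least 2 KO libraries reach into the WT range.

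Among the other L1Md names, 1 of 20 was called, L1MdA_II of the A subfamily, also lower in KO, and 0 were called higher. It fell by 0.90 on the log2 scale (95% interval -1.30 to -0.50, edgeR adjusted p = 0.0293). That call was lost with no filter (edgeR adjusted p = 0.0822), without WT replicate 1, 3, 4 or 6 or KO replicate 1, 3 or 6 (0.0515 to 0.0769) and without both WT replicate 2 and KO replicate 5 (0.0561), with values from -0.92 to -0.80. L1MdMus_II, named with its values in view, had a log2 fold change of -0.68, further from 0 than that of L1MdGf_II, and just missed the threshold (edgeR adjusted p = 0.0534). It was called by DESeq2 (adjusted p = 0.00275), by limma-voom (0.0441) and by edgeR with TMM without LTR names (0.0455). Further edgeR calls came with total counts (adjusted p = 0.0408), TMM without simple repeats (0.0374), LINE counts (0.0293), a mean of at least 10 CPM (0.0128) and the library size covariate (0.0135). The call was missed with upper quartile factors (edgeR adjusted p = 0.0536), RLE factors (0.0676), a replicate block (0.0606) and no filter (0.171). The 20 had a median log2 fold change of 0.01, with 7 negative and 13 positive values. A difference in response between L1MdGf_II and L1MdA_II was not called, with most of the KO libraries inside the WT range: the log2 ratio of L1MdGf_II to L1MdA_II was -0.94 ± 0.28 for WT against -0.65 ± 0.28 for KO (n = 6, exact permutation p = 0.110, adjusted p = 0.221). Against the 24 other L1Md names, L1MdGf_II was called lower in 19 ratios and higher in 0, while L1MdA_II was lower in 23 of its 24 and L1MdMus_II and L1MdF_III (also named with its values in view) in 20 and 18. Of the remaining Tf and Gf names, L1MdTf_III was called lower in 7 ratios and higher in 4, L1MdTf_II lower in 1 and higher in 4, L1MdTf_I higher in 4 and L1MdGf_I higher in 1. The names of the LINE class outside L1Md had a median log2 fold change of 0.11, with 2 of 164 lower and 0 higher.

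**Figure D3:**
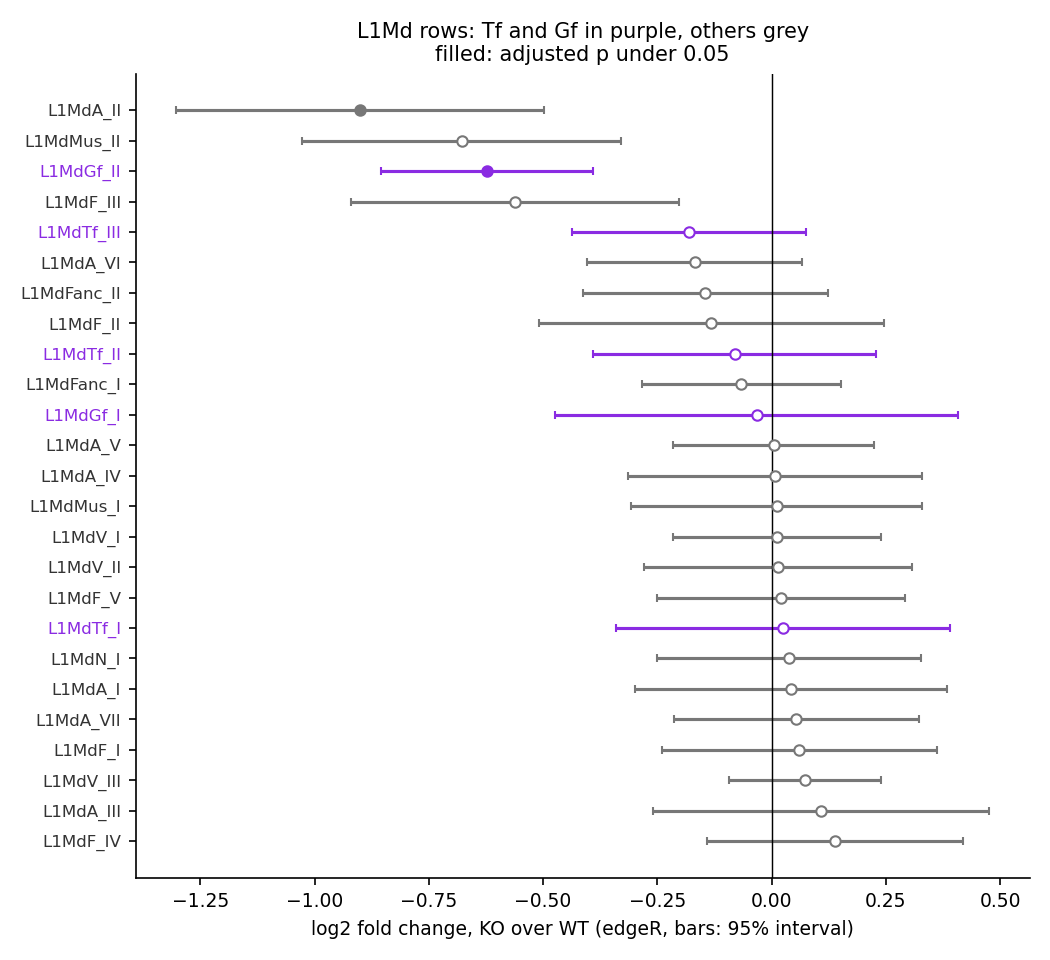
Log2 fold changes, KO over WT, with 95% intervals (horizontal axis) of the 25 L1Md names from the edgeR fit, ordered by value, with Tf and Gf in purple and filled points for an adjusted p under 0.05. L1MdGf_II at -0.62 is filled, as is L1MdA_II at -0.90, and the intervals of the other 4 Tf and Gf names include 0.

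The names also differed in how they varied from library to library within a genotype. As a measure of likeness, the SD over the 12 libraries of the log2 ratio of 2 names was taken. Each genotype's mean had been subtracted before. This SD is small where 2 levels move together, and also where both vary little. A name's own SD is that of its log2 level, taken in the same way. These values are descriptions, and libraries, depth and scaling are shared by all names. The Tf names were close to each other, at 0.11 for L1MdTf_II with L1MdTf_III, 0.18 for L1MdTf_I with L1MdTf_III and 0.21 for L1MdTf_I with L1MdTf_II. L1MdGf_I was nearer to the Tf names, at 0.21 to 0.25, than to L1MdGf_II, at 0.40. L1MdGf_II itself stood at 0.22 with L1MdTf_III, 0.27 with L1MdTf_II and 0.29 with L1MdTf_I. These values were not below its own SD of 0.20. Of the 1440 names, 145, 485 and 559 were closer to L1MdGf_II than these Tf names, in the same order. Values of similar size thus stood for unlike closeness in L1MdGf_I and L1MdGf_II.

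The names outside the 5 that were most alike were LINE-1 for the Tf names and L1MdGf_I. They were L1MdF_IV, L1MdFanc_II and L1_Mur2 for L1MdTf_III (0.07, 0.08 and 0.09), L1MdN_I, L1Lx_II and Lx3A for L1MdTf_II (0.10, 0.11 and 0.11), L1MdF_IV, L1Lx_III and L1ME5 for L1MdTf_I (0.13, 0.14 and 0.15) and L1MdF_II, L1MdA_III and L1MdMus_I for L1MdGf_I (0.12, 0.14 and 0.17). All of these are older or sister LINE-1 names, and none was called between the genotypes.

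L1MdGf_II had other neighbours. Of the 1440 other names whose mean normalised CPM reached 10, the closest was RLTR1B-int (0.11), the internal part of an endogenous retrovirus of the ERV1 family, followed by L1ME4b, an old LINE-1 (0.12), and MMERGLN-int of ERV1 (0.15). The median over the 1440 names was 0.32. RLTR1B-int stood at 489 ± 49.5 normalised CPM for WT against 334 ± 38.9 for KO (SD, n = 6), and differed by -0.55 on the log2 scale (edgeR adjusted p = 0.0149) and no overlap of the groups. MMERGLN-int differed by -0.41 (edgeR adjusted p = 0.0552) and L1ME4b by 0.24 (edgeR adjusted p = 0.341), so closeness within a genotype did not go with the same difference between genotypes for all 3.

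**Figure D4:**
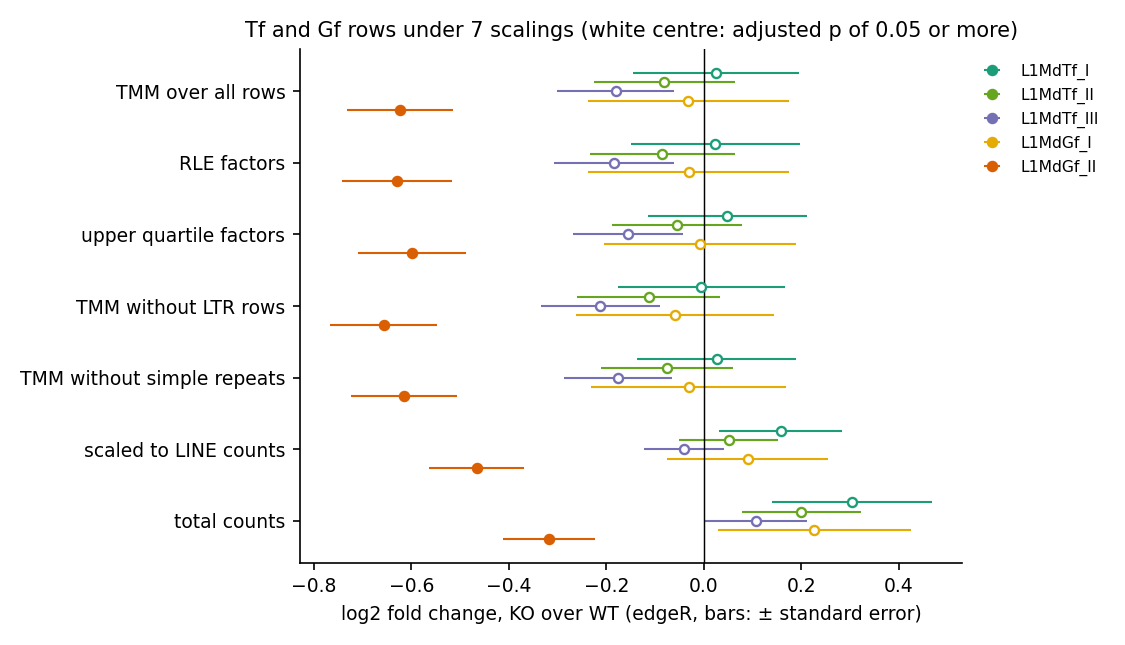
Log2 fold changes, KO over WT, with standard errors (horizontal axis) of the 5 Tf and Gf names under 7 ways of scaling the libraries in edgeR; a white centre marks an adjusted p of 0.05 or more. L1MdGf_II stays below 0 and called, from -0.66 with TMM factors computed without LTR names to -0.32 with total counts. The other 4 are not called under any scaling and shift together to between 0.11 and 0.30 with total counts. Under every other scaling L1MdTf_III lies below 0, from -0.21 to -0.04.

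The scaling bears on these names because the LTR class, the retrotransposons with long terminal repeats, took 55.9% ± 2.05 of all counts for WT against 47.7% ± 2.88 for KO (SD, n = 6). A smaller LTR part enlarges every other share. With library sizes taken from LINE counts alone, the log2 fold change was -0.47 for L1MdGf_II (edgeR adjusted p = 0.0263), 0.16 for L1MdTf_I, 0.09 for L1MdGf_I, 0.05 for L1MdTf_II and -0.04 for L1MdTf_III, the last 4 not called. The distance of L1MdGf_II from the median of all repeats was -0.63 with TMM. It was -0.61 to -0.65 in 10 of the 12 alternatives that kept all libraries. With library size as a covariate it was -0.67, and with no filter -0.78. A change of scaling alone moves all names by nearly the same amount. This distance could therefore hardly differ between scalings, and its steadiness there is no separate result. MERVL-int, the marker of the 2-cell stage, fell in the same libraries (log2 fold change -1.04, edgeR adjusted p = 0.0159), as did MT2_Mm (-0.92, edgeR adjusted p = 0.0229). The part of embryo stage in the fall of L1MdGf_II was not tested.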

How the data were processed

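Total RNA libraries of 2-cell embryos, 6 per genotype, were analysed from 1 table per library. Column 4 of each deposited table was read as an estimated count per repeat name; all were whole numbers, and a rounding of fractions is not stated. The submitters' processing notes name mm10, Trimmomatic 0.32 and edgeR. Aligner, repeat annotation, use of strand and handling of reads that map to several copies: not given in the sources used here. Tf and Gf copies are near-identical and could share reads, so separate levels are uncertain, and copies inside genes could add reads of those genes.

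Groups and replicate numbers came from the titles; within each group, the numbers in the names of the deposited tables run the opposite way. Rows were kept by filterByExpr (3312 of 18538), scaled by TMM and tested with edgeR 4.0.16 in R 4.3.3 by the quasi-likelihood F test with genotype as the only term, adjusted by Benjamini-Hochberg over all tested rows at 0.05. Standard errors came from the F statistic. Ratios were tested with all 924 regroupings. Likeness used log2(CPM + 1). Named were the 5 members, called L1Md rows, the 3 most alike rows per member and MERVL-int and MT2_Mm. MTA_Mm-int, a repeat of RNA stored in the oocyte, stood at 5.43% ± 0.384 of a WT library and 4.97% ± 0.607 of a KO library (SD, n = 6). With TMM its log2 fold change was -0.43, not called (edgeR adjusted p = 0.0901), and 5 KO libraries were below every WT library. The members and lists were chosen with earlier results of these data known. On simulated counts for the 3312 tested repeats, the fit recovered 32.3% of 62 repeats changed by 0.6 on the log2 scale and 41.4% of 70 changed by 1. Among those whose mean CPM was at least 10, it recovered 57.1% of 35 and 86.7% of 30. The 5 members averaged 281 to 3512 normalised CPM, and recovery at such levels was not measured separately. Other settings tried were scaling by RLE, upper quartile or total counts, TMM without LTR or simple repeats, LINE counts, DESeq2 1.42.0, limma-voom 3.58.1, other filters, a replicate block, library size and left-out libraries. Correlations of same-numbered libraries' deviations ran from -0.13 to 0.20, so the numbers were not taken to pair them. Reads are not independent molecules.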

Additional observations from a re-analysis of the deposited data

Results flagged for a closer look

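The log2 ratio of L1MdTf_I to L1MdTf_III stood apart in KO replicate 5, at -1.23, while the other 5 KO libraries lay between -1.81 and -1.64. Its gap to the nearest library was 0.708 of the range of the group, above the limit of Dixon's test for a group of 6. KO replicate 5 was the shallowest library and had the highest normalised CPM of L1MdTf_I, 416. Among 56 groups of values examined, this was the only one with a library set apart by this limit, and chance gives about 1 in 20.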

How the results depend on the processing

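L1MdGf_II kept its direction and its call in all 25 alternatives (log2 fold change -0.69 to -0.32), and in each the other 4 names were not called. The count of all repeats called, 47, was 390 with total counts, 78 with TMM without LTR rows, 169 with DESeq2, 18 with no filter, 114 at a mean of at least 10 CPM, 72 with library size as a covariate, 23 without both WT replicate 2 and KO replicate 5, and 19 to 93 without single libraries. With total counts the calls were 33 lower and 357 higher, beside 42 and 5. Some small values changed sign. L1MdGf_I, -0.032 in the main fit, was 0.23 with total counts, 0.090 with LINE counts and -0.14 to 0.078 without single libraries. It kept its sign, at -0.21, without both WT replicate 2 and KO replicate 5. L1MdTf_I was -0.0052 with TMM without LTR rows, -0.037 with limma-voom, -0.059 with the covariate, -0.15 without both and -0.11 to 0.11 without single libraries. L1MdTf_II was 0.20 with total counts, 0.051 with LINE counts and -0.17 to 0.012 without single libraries, and L1MdTf_III 0.11 with total counts. The cause was not tested.

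With the replicate number as a block, edgeR called 48 repeats and L1MdGf_II with -0.62 (adjusted p = 0.0461), while L1MdTf_I was -0.0038. Paired sign flips of the ratios allow no p under 0.0312 and called 0 of 300 ratios and 0 of 10 between Tf or Gf names, beside 96 and 3. After adjustment over 300 ratios, any call would need most of the ratios to sit at that smallest p. The sign flips therefore cannot decide whether the calls hold. By permutation without both WT replicate 2 and KO replicate 5, the calls were 59 and 0. Without single libraries they were 42 to 102 (42 without KO replicate 3) and 0 to 4. The log2 ratio of L1MdGf_I to L1MdTf_I was -0.12 to 0.0055 without single libraries. That of L1MdGf_I to L1MdTf_II, 0.06, was -0.047 to 0.12 without single libraries, -0.086 without both and -0.090 as a difference of medians. The log2 share of the 5 names, KO over WT, -0.12, was -0.37 among counts outside the LTR class.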
